A study of Homo sapiens with 12 samples.

Results

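Interferon-stimulated and RNA-sensing genes were examined in HepG2 cells, a human liver cancer line, after knockdown of the RNA-binding protein IGF2BP3. The members were taken from a list of 48 gene names by their GENCODE symbol, and because DDX58 is the older symbol of RIGI the list held 47 genes of the 58721 in the count files. They comprise 9 RNA sensors or double-stranded RNA binding proteins, 5 transcription factors, 4 IFIT proteins, 7 genes of the ISG15 system or TRIM ligases, 4 genes of the PARP and DTX3L group, 12 membrane and other effectors and 6 genes of antigen presentation.

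The series has 12 libraries in 4 groups of 3, namely Input and ribosome-protected fragments (RPF) from cells transfected either with a control siRNA, called siControl, or with siRNA that targets IGF2BP3, called siIGF2BP3. Both conditions received an siRNA by lipid transfection, the control being AllStars negative control siRNA, and cells were collected 2 days later after 4 min in cycloheximide at 100 µg/mL. RPF libraries hold gel-purified fragments of 28 to 30 nucleotides left after RNase I digestion, and Input libraries stand for transcript level. No untransfected or mock-transfected group is among the libraries, so a response common to both siRNAs cannot be seen and the contrast measures the difference between the siRNAs. A single cell line was used, and the number and sequences of the siRNAs against IGF2BP3 are not given in the sources used here. Effects of losing IGF2BP3 and effects of the siRNA sequence cannot be told apart.

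Cells recognize double-stranded or 5′-triphosphate RNA through cytosolic sensors such as RIG-I (RIGI) and MDA5 (IFIH1), and transfected RNA can engage them, depending on its length and chemistry. Sensor signalling turns on interferon genes through IRF3 and IRF7, and secreted interferon acts through its receptors and a transcription factor complex that holds STAT2 and IRF9 on a large set of interferon-stimulated genes, which hold short promoter elements for that complex. Their products block translation (EIF2AK2, the IFIT proteins), degrade viral RNA (the OAS proteins acting with RNase L), stop virus entry or release (the IFITM proteins, BST2), modify proteins (ISG15) and present peptides (B2M, HLA class I).

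Total counts ran from 11219750 to 14797573 in Input and from 13036423 to 31510601 in RPF. IGF2BP3 itself was lower in siIGF2BP3, at 101, 96.5 and 103 CPM (normalized counts scaled to a common library size, as all CPM here) in Input against 135, 131 and 129 in siControl, and at 22.8, 27.7 and 25 in RPF against 73.4, 78.2 and 77.5. siControl RPF replicates 2 and 3 differed by about the sampling noise and were counted as 1 sample in means and SDs. Their mean chi-square was 0.941 over 19831 genes, against 2.09 to 2.8 for the other siControl RPF pairs, and 1.06 over protein-coding genes. siIGF2BP3 RPF replicate 1, the shallowest RPF library, stood apart from replicates 2 and 3 with mean chi-square values of 19.9 and 21.5 against 1.15 between those, so RPF fold changes and calls are given with and without it. siIGF2BP3 RPF replicates 2 and 3 were also close to the sampling noise (1.27 over protein-coding genes) but were kept as 2 samples. RPF and TE calls made without replicate 1 rest on that small spread. The hepatocyte markers ALB, AFP, APOA1, APOB, TTR and SERPINA1 were abundant, whereas 5 markers of blood and immune cells summed to 23.7 to 30.3 CPM in Input, mostly CD68, with PTPRC and CD3E at 0 counts in all Input libraries. Nothing in the labels or methods says that the libraries of a group came from separate cultures, so p-values measure only the spread between these libraries.

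Promoter sequences of the members were searched for the elements named above. Of the 47 members, 40 had a promoter in the RefSeq table (GRCh38.p14, 250 bases before to 50 bases after each start). The core of the interferon-stimulated response element (GAAA, any 2 bases, then GAAA, on either strand) lay in 26 of the 40 (65%) against 1255 of 35116 promoters in the table (3.57%). The core of the gamma-activated site, TTCNNNGAA, which reads the same on both strands and can overlap the first motif, lay in 12 of the 40 (30%) against 2689 of 35116 (7.66%). The members' shares count a gene with a match in any of its promoters, whereas the shares of the table count single promoters. Some members, such as IFIT3, MX1 and TAP1, have more than 1 promoter, which raises the members' shares, so the shares are not like for like. A match is a stretch of letters, not a measured binding site. The windows below belong to members whose values recur in the results, and capitals mark the response element core.
ISG15, ubiquitin-like modifier, chr1:1013381-1013408, plus strand: cgggaaaggGAAACCGAAActgaagcca
IFIT1, binder of uncapped viral RNA, chr10:89392511-89392538, minus strand: aaacctaggGAAACCGAAAggggaaagt
IFITM3, entry inhibitor, chr11:320877-320904, minus strand: aactgttgaGAAACCGAAActactgggg
EIF2AK2, the kinase PKR, chr2:37156968-37156995, minus strand: gtccaagggGAAAACGAAActgagaacc
BST2, the tether of budding virions, chr19:17405742-17405769, minus strand: cctttctggGAAACTGAAActgaaaacc
B2M, light chain of HLA class I, chr15:44711370-44711397, plus strand: taagaaaagGAAACTGAAAacgggaaag
PARP9 and DTX3L, which share 1 window, chr3:122564323-122564350, plus strand: cagggaagcGAAACTGAAActttgcgcc
ISG15, IFIT1 and IFITM3 hold the same 10 letters GAAACCGAAA, whereas BST2, B2M and the shared window of PARP9 and DTX3L hold GAAACTGAAA. PARP9 and DTX3L are transcribed in opposite directions from that window.

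Transcript levels of the members spanned a wide range in siControl cells. Levels were compared between genes per exon length, as TPM (counts per kilobase of exon, scaled to a common sum in each library) computed from the counts. IFITM3 was highest in Input at 219 ± 13 TPM (SD, n = 3), followed by ISG15 at 148 ± 6.7, IFITM2 at 142 ± 9.4, BST2 at 97.8 ± 5 and B2M at 82.8 ± 3. The SDs of ISG15 and IFITM2 were wider than the gap between them, and the other neighbours in this order lay further apart than their SDs. Of the sensors, ADAR, which deaminates adenosine in double-stranded RNA, stood at 52.3 ± 1.6 TPM and EIF2AK2 at 42.3 ± 2.9, while IFIH1 stood at 8.98 ± 0.13 and RIGI at 8.28 ± 0.97. The median of the 40 members that passed the filter on low counts was 9.13 TPM in siControl Input, against 15.1 TPM for all genes tested, and 14 of the 40 lay above that value.

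**Figure D1:**
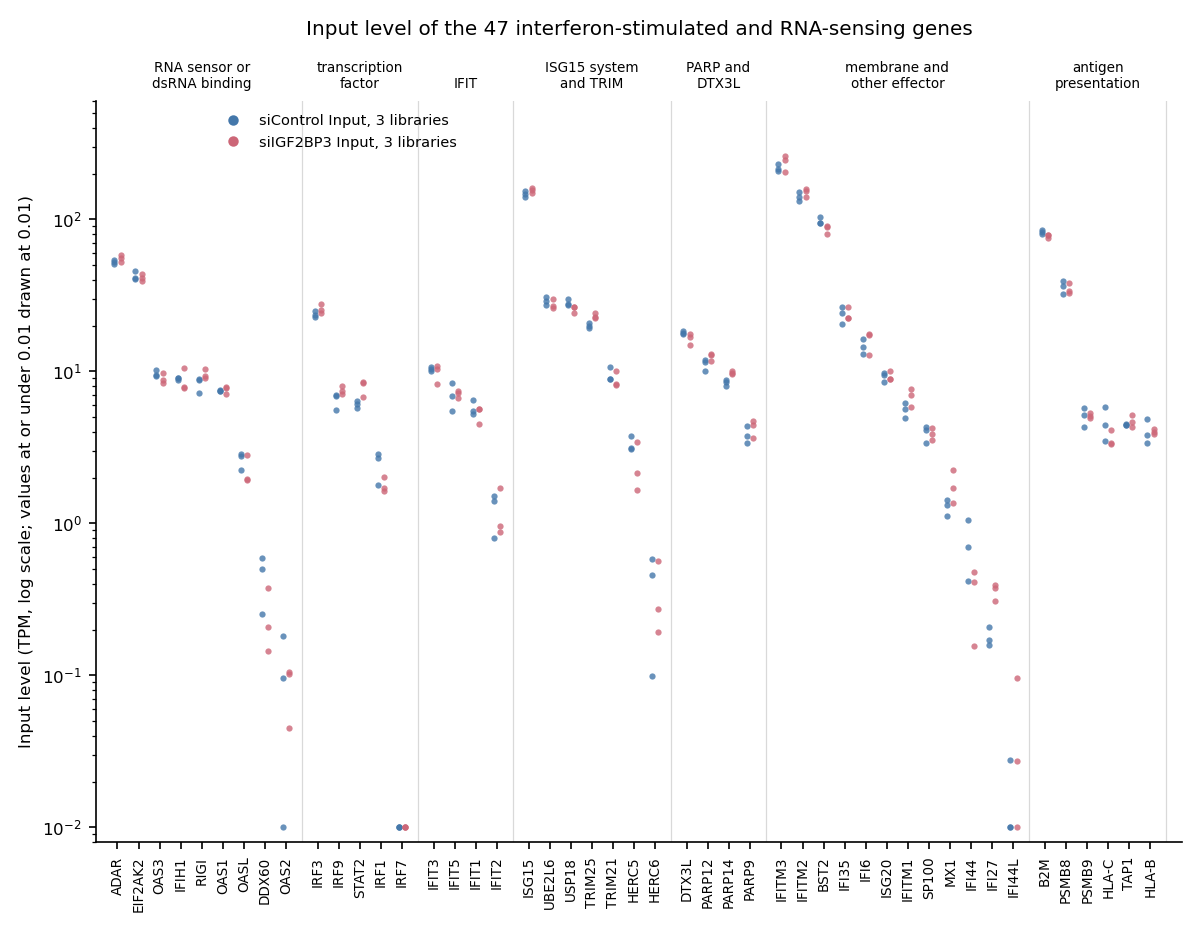
Level of each member per exon length in Input, on a log axis in TPM with genes grouped by role on the x axis; each point is 1 of 3 libraries of siControl or siIGF2BP3, and values at or under 0.01 are drawn at 0.01. IFITM3 is highest at a siControl mean of 219 TPM, IRF7 lies at the floor in all 6 libraries, and the points of both conditions lie close together for the abundant members.

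Several classical interferon-stimulated genes were barely detected in either condition. IRF7, the transcription factor that amplifies interferon production, had 0 counts in all 12 libraries, which allows up to 3 counts in each. IFI44L had 5 counts over the 6 Input libraries and 1 over the 6 RPF libraries. OAS2 had 11.5 and 45, IFI27 22.75 and 13, and IFI44 24 and 50. DDX60 with 50 and 162 counts and HERC6 with 44 and 379.5 were below the filter in Input only, as was IFI44. In all, 7 members failed the filter in Input and 4 of them also in RPF, so tests covered 40 members in Input, 43 in RPF and 40 in the change of RPF over Input. Interferon genes themselves were likewise at the floor. Of 9 ligands examined (IFNB1, IFNA1, IFNA2, IFNK, IFNE, IFNG, IFNL1, IFNL2 and IFNL3), 8 had 0 counts in all 12 libraries and IFNL1 had 1 count in 1 siIGF2BP3 RPF library. These counts and floors cover counting error only.

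Transcript levels of the members differed little between siIGF2BP3 and siControl. In edgeR's quasi-likelihood test over all 14759 genes of the Input fit, 5.96% were called at an adjusted p under 0.05 (598 higher and 281 lower in siIGF2BP3). Of the 40 members, 1 was called (2.5%), and it was lower. The members' median log2 fold change was -0.08 against 0.00 for all genes tested, with 15 members above 0 and 25 below. The 95% interval of the fold change lay within 1.5-fold in either direction for 33 of the 40 and within 2-fold for 39. The highest upper bound belonged to MX1, a GTPase that blocks viral nucleocapsids, at 0.78 on the log2 scale.

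B2M was the member that passed the test. B2M in Input was 137, 149.8 and 144 CPM in siControl and 123, 129.5 and 130.1 CPM in siIGF2BP3. The highest siIGF2BP3 library lay under the lowest siControl library, and the log2 fold change was -0.17 ± 0.05 (SE) with an edgeR adjusted p of 0.0401. The call was lost when any library other than siControl Input replicate 1 was left out (adjusted p of 0.0781 to 0.146). B2M in RPF was 172, 172 and 176 CPM in siControl and 148, 165 and 166 CPM in siIGF2BP3, and its RPF log2 fold change of -0.12 ± 0.06 had an edgeR adjusted p of 0.372 (-0.06 ± 0.03 and 0.137 without siIGF2BP3 RPF replicate 1). Hepatocyte markers moved the same way in Input, where edgeR called ALB, AFP, APOA1 and SERPINA1 (4 of the 6) as lower in siIGF2BP3. The summed level of all 6 markers was 51440 to 51710 CPM in siControl and 45560 to 46300 CPM in siIGF2BP3, with none of the 6 at 0. Their part in the B2M result was not tested. In these bulk samples, fewer cells of a type and less RNA per cell cannot be told apart.

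Among the other genes of antigen presentation, none passed the test in Input. HLA-C in Input was 3.16, 4.21 and 2.51 CPM in siControl and 2.25, 2.82 and 2.31 CPM in siIGF2BP3, and HLA-B was 3.27, 4.27 and 2.95 CPM against 3.28, 3.46 and 3.22 CPM. Both pairs of groups overlapped. PSMB8, an immunoproteasome subunit, was 27.5, 31.3 and 33.7 CPM in siControl Input against 27.3, 31.1 and 26.8 CPM in siIGF2BP3, and it also overlapped. TAP1, which pumps peptides into the endoplasmic reticulum, had a log2 fold change of 0.00 with an interval of -0.29 to 0.30.

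The most abundant antiviral effectors were likewise close in both conditions. ISG15 in Input was 39.3, 41.8 and 37.9 CPM in siControl and 37.9, 40 and 40.9 CPM in siIGF2BP3. IFITM3 was 88.6, 80.9 and 82.6 CPM in siControl Input and 74.3, 90.8 and 95.4 CPM in siIGF2BP3. IFITM2 was 66, 59.1 and 61.7 CPM against 58.4, 66.7 and 63.9 CPM. The groups overlapped for all 3 genes, and the ISG15 log2 fold change of 0.00 had an interval of -0.14 to 0.14. BST2 was 29.8, 33.4 and 30.4 CPM in siControl Input and 24.2, 27.4 and 27 CPM in siIGF2BP3. These groups did not overlap, and the log2 fold change of -0.25 ± 0.08 missed the threshold (edgeR adjusted p = 0.0593, and 0.0447 to 0.209 over its alternatives). HERC5, the ISG15 ligase, was 5.08, 4.21 and 4.29 CPM in siControl Input against 4.4, 2.14 and 2.75 CPM, where 1 siIGF2BP3 library lay within the siControl range, and it was called only without that library, siIGF2BP3 Input replicate 1 (-0.89, edgeR adjusted p = 0.0213).

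Counts of non-overlapping groups were taken for the members and for all genes in Input. The whole siIGF2BP3 group was under the whole siControl group for 11.2% of all genes tested and for 5 of the 40 members (12.5%), namely B2M, BST2, DTX3L, OAS3 and USP18. The reverse order held for 13.5% of all genes and for 3 members (7.5%), namely PARP14, STAT2 and TRIM25. With library totals in place of normalization factors the members' counts were 4 and 3, while those of all genes were 5.73% and 19.2%.

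**Figure D2:**
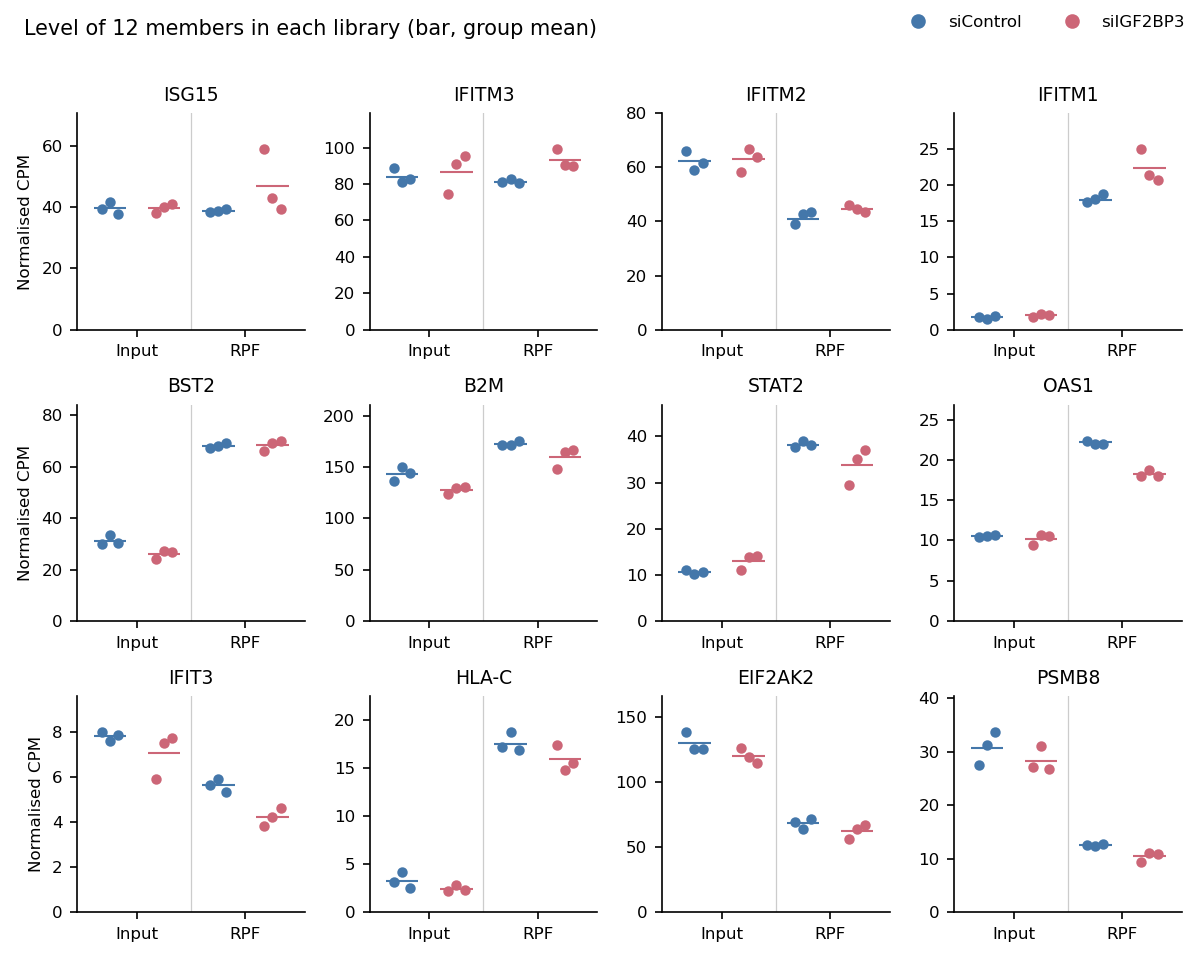
Normalized CPM of 12 members in every library, on linear axes that start at 0, with Input on the left and RPF on the right of each panel; points are the 3 libraries of a group and bars the group means. The 3 siIGF2BP3 points of B2M in Input lie at 123 to 130.1 CPM under siControl points of 137 to 149.8, and those of IFITM1 in RPF lie at 20.7 to 25 CPM over siControl points of 17.6 to 18.7.

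No member passed the test in RPF. edgeR called 1.66% of the 20192 genes in the RPF fit and 0 of 43 members, and DESeq2 also called 0. An unadjusted p under 0.05 was found for 11 of the 43 (25.6%) and for 16.1% of all genes. The median log2 fold change of the members was -0.09 against 0.01 for all genes, with 17 above 0 and 26 below. The interval lay within 1.5-fold for 38 of the 43 members and within 2-fold for 41. The highest upper bound was 0.63 for IFI44, a low-count gene. Without siIGF2BP3 RPF replicate 1, edgeR called 16.5% of 20615 genes and 11 of 43 members (25.6%), of which 8 were lower and 3 higher in siIGF2BP3, while the members' median was -0.06 against 0.00. With siControl RPF replicates 2 and 3 summed as well, 9 of 44 members (20.5%) and 14.4% of 20898 genes were called, and USP18 and ISG20 were not among them.

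**Figure D3:**
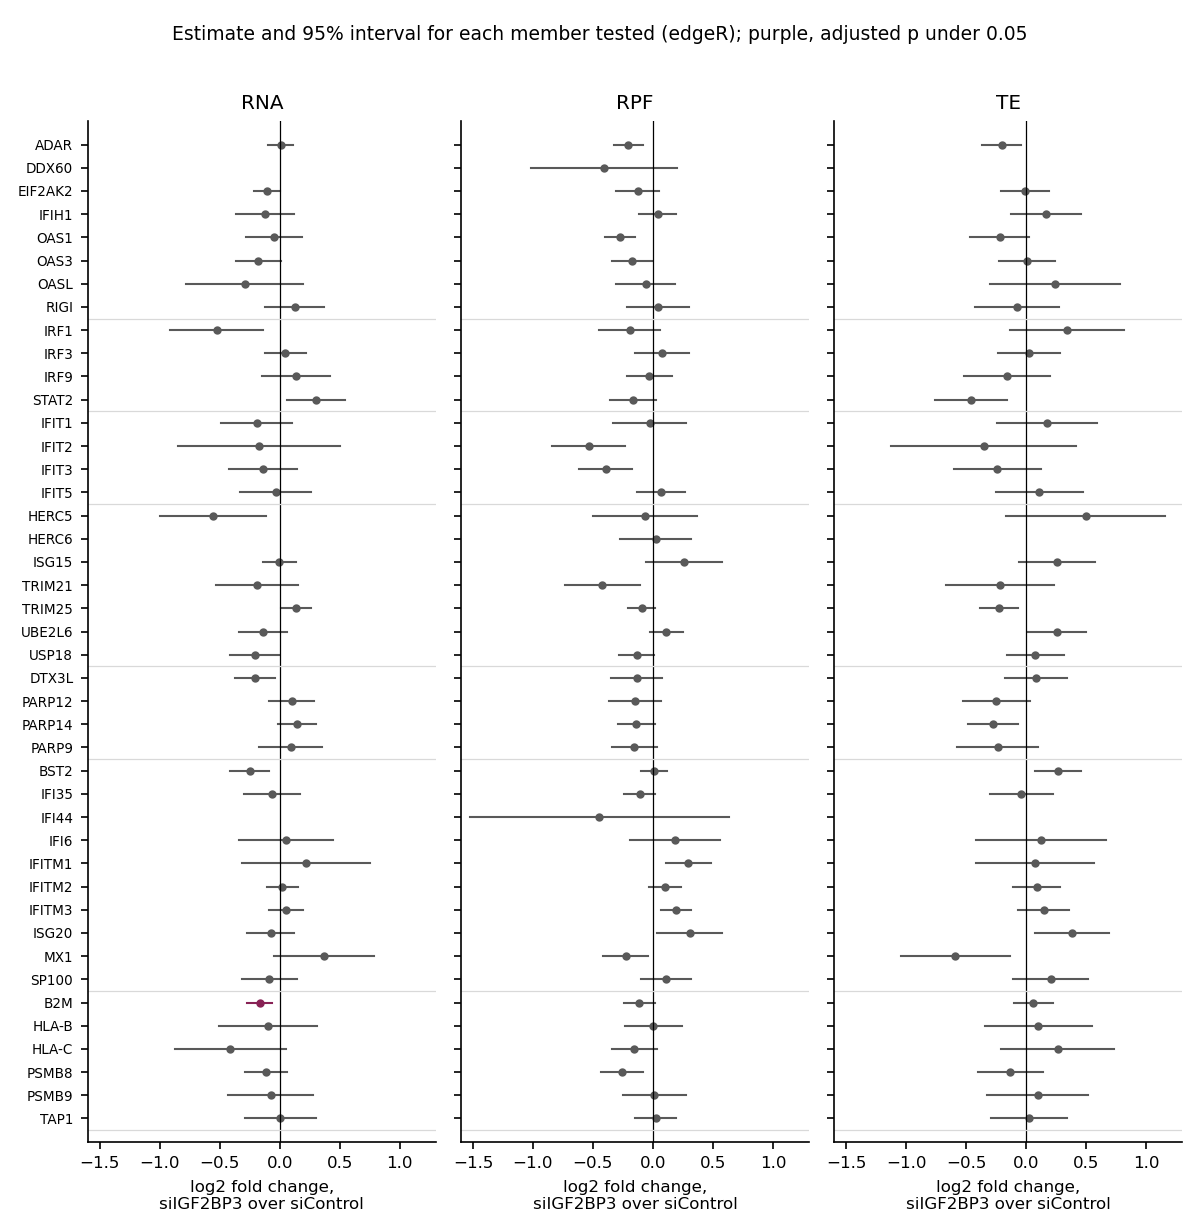
Log2 fold change of siIGF2BP3 over siControl for each tested member (rows, in blocks by role) in Input (RNA), RPF and RPF over Input (TE); points are edgeR estimates, lines 95% intervals, and the vertical line marks 0. B2M in RNA, in purple, is the 1 member called, and the widest RPF interval is that of IFI44, from -1.52 to 0.63.

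RNA sensors and double-stranded RNA binding proteins lay lower in RPF when summed. The 9 genes together were 306, 297 and 304 CPM in siControl RPF and 259, 274 and 285 CPM in siIGF2BP3, and 6 of the 8 tested had a negative log2 fold change, with a median of -0.15 (-0.11 without siIGF2BP3 RPF replicate 1). Their Input sums were 343, 332 and 328 CPM in siControl and 320.2, 323 and 321 CPM in siIGF2BP3, so they lay lower in Input too. ADAR alone made up a large share of the RPF sum, and the other 8 genes summed to 187, 179 and 186 CPM against 163, 170.1 and 177 CPM. OAS1, which makes the 2-5A activator of RNase L, was 22.4, 22 and 21.9 CPM in siControl RPF against 18, 18.7 and 18 CPM. The groups were well apart, and the log2 fold change of -0.28 ± 0.05 had an edgeR adjusted p of 0.057, which was 0.00289 without siIGF2BP3 RPF replicate 1. ADAR was 119, 117.5 and 118 CPM against 96.3, 103.5 and 108 CPM. Its groups did not overlap, and its log2 fold change was -0.20 ± 0.05 (adjusted p = 0.109) with all libraries and -0.16 ± 0.03 (adjusted p = 0.00367, edgeR) without that library. OAS3 was 44.2, 42.5 and 44.9 CPM against 43.3, 36.1 and 37.8 CPM, so its groups overlapped in the library that stood apart, and it was called only without it (-0.25 ± 0.04, edgeR adjusted p = 0.00226).

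RIGI and IFIH1, the helicases that start the pathway, had overlapping groups. RIGI was 18.4, 19.8 and 17.8 CPM in siControl RPF and 15.6, 20 and 21.3 CPM in siIGF2BP3. IFIH1 was 29.2, 26.9 and 25.7 CPM against 26.6, 28.4 and 29 CPM. Their RPF log2 fold changes were 0.04 each, with intervals of -0.22 to 0.30 for RIGI and -0.12 to 0.20 for IFIH1, and were 0.15 and 0.07 without siIGF2BP3 RPF replicate 1 (edgeR adjusted p of 0.101 and 0.5). EIF2AK2, the kinase PKR that arrests translation on double-stranded RNA, was 69.6, 64 and 72 CPM against 56.6, 63.7 and 67.2 CPM, which also overlapped.

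In the IFIT family, IFIT3 and IFIT2 had the lower RPF values. IFIT3, a partner that stabilizes IFIT1, was 5.65, 5.91 and 5.33 CPM in siControl RPF and 3.82, 4.24 and 4.63 CPM in siIGF2BP3. IFIT2 was 1.78, 1.83 and 1.71 CPM against 1.43, 1.21 and 1.09 CPM. Neither gene's groups overlapped, and the log2 fold changes were -0.39 ± 0.09 and -0.54 ± 0.13 (edgeR adjusted p of 0.0931 and 0.131). Both were called without siIGF2BP3 RPF replicate 1, at -0.34 (adjusted p = 0.03) and -0.61 (adjusted p = 0.0399, edgeR). IFIT1 and IFIT5 had RPF log2 fold changes of -0.03 and 0.07 with intervals that spanned 0, as did those of 0.05 and 0.12 without that library. IFIT2 overlaps LIPA on the opposite strand, which had 1224 counts in siControl Input against 19.2 for IFIT2. In siControl RPF the mean counts were 6554 for LIPA against 44.2 for IFIT2. The strand setting of the counting is not given in the sources used here, so the IFIT2 values are uncertain.

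The ISG15 system and TRIM ligases fell on both sides of 0. ISG15 in RPF was 38.3, 38.6 and 39.5 CPM in siControl and 58.8, 42.9 and 39.2 CPM in siIGF2BP3. The high value belongs to the library that stood apart, and the log2 fold change of 0.26 ± 0.14 became 0.08 ± 0.04 without it (edgeR adjusted p of 0.404 and 0.263). TRIM25, a ubiquitin ligase that acts on RIG-I, was 88.1, 86.6 and 87.5 CPM in siControl RPF and 85.8, 79.3 and 81 CPM in siIGF2BP3. USP18, which removes ISG15 from proteins, was 19.5, 19.2 and 20 CPM against 18.9, 16.9 and 17.8 CPM. Neither pair of groups overlapped, and both genes were called only without the first siIGF2BP3 RPF library (TRIM25 -0.12, adjusted p = 0.0148, and USP18 -0.17, adjusted p = 0.04, edgeR). In Input TRIM25 lay on the other side, at 55.5, 54.6 and 52.3 CPM in siControl and 61.7, 58.6 and 58.1 CPM in siIGF2BP3, a log2 fold change of 0.13 ± 0.06 (edgeR adjusted p = 0.191).

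Membrane and other effectors lay higher in RPF when summed. The 3 IFITM genes, which share coding sequence, made up a large share of that sum. No sum without them was taken, so it is not read as a result of the whole class. The 12 genes together were 295, 303 and 299 CPM in siControl RPF and 335, 313 and 315.5 CPM in siIGF2BP3, and 7 of the 10 tested had a positive log2 fold change, with a median of 0.11. Without siIGF2BP3 RPF replicate 1, which holds the highest of these sums, 6 of the 10 were positive and the median was 0.06. IFITM1 in RPF was 17.6, 18.1 and 18.7 CPM in siControl and 25, 21.4 and 20.7 CPM in siIGF2BP3. IFITM3 was 81.1, 82.5 and 80.5 CPM against 99, 90.6 and 89.8 CPM, and IFITM2 was 39, 42.6 and 43.4 CPM against 46.1, 44.6 and 43.5 CPM. In each of the 3 genes the lowest siIGF2BP3 library lay above the highest siControl library, for IFITM2 by less than the spread within siControl. IFITM1 and IFITM3 had log2 fold changes of 0.29 ± 0.08 and 0.19 ± 0.05 with an edgeR adjusted p of 0.124 each, which were 0.22 (adjusted p = 0.0107) and 0.15 (adjusted p = 0.00519) without the library that stood apart. ISG20, an exonuclease, was 16.2, 16.1 and 16.3 CPM in siControl RPF and 24.7, 18.2 and 18.2 CPM in siIGF2BP3, with an edgeR adjusted p of 0.251 with that library and 0.0447 without it. BST2 in RPF was 67.4, 68.1 and 69.4 CPM against 66.2, 69.4 and 70.1 CPM, and the groups overlapped.

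The 3 IFITM genes are neighbours on chromosome 11 that share stretches of coding sequence, so their single values are uncertain. In addition, the gene models of IFITM1 and IFITM2 overlap on the same strand. The start of the IFITM1 coding sequence and the matching stretch of the other 2 are shown for the length of 1 footprint, 29 bases (hg38), with the bases that differ among the 3 in capitals.
IFITM1, chr11:314171-314199, plus strand: atgcAcaaggaggaAcaTgaGgtggctGt
IFITM2, chr11:308253-308281, plus strand: atgcTcaaggaggaGcaGgaAgtggctAt
IFITM3, chr11:320722-320750, minus strand: atgcTcaaggaggaGcaCgaGgtggctGt
A stretch further along is identical in IFITM2 (chr11:308315-308343, plus strand) and IFITM3 (chr11:320660-320688, minus strand): gtccaccgtgatccacatccgcagcgaga
All are exonic and coding. Of all 29-base windows of the coding sequence, 63.7% of IFITM1, 41.8% of IFITM2 and 72.2% of IFITM3 also occurred in annotated transcripts of another gene. For IFITM1, 40.3% occurred in IFITM3 and 20.5% in IFITM2. The deposited values of IFITM1 were fractional in 12 of 12 libraries, as arises when reads with several alignments or overlapping genes are split. Summed into 1 feature, the 3 genes had RPF log2 fold changes of 0.18 ± 0.05 (edgeR adjusted p = 0.144) with all libraries and 0.14 ± 0.03 (adjusted p = 0.00744) without siIGF2BP3 RPF replicate 1, and an Input log2 fold change of 0.04 ± 0.06. USP18 shared 58.5% of its windows, mainly with USP41. RIGI shared 96.2% and IRF9 100%, each with an annotated gene model that covers it. The model over IRF9 was counted, with a mean of 243.5 counts in siControl Input against 92.3 for IRF9. For RIGI no overlapping counted gene was found. RIGI values were fractional in 1 of 12 libraries, so the counts gave little sign of split reads for RIGI. B2M, ISG15, BST2, STAT2, ADAR, TRIM25 and ISG20 shared 0.

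HLA-B and HLA-C share fewer footprints. Their first 29 coding bases are shown with the bases that differ in capitals.
HLA-B, chr6:31357130-31357158, minus strand: atgcTggtcatggcgccccgaAccGtcct
HLA-C, chr6:31272043-31272071, minus strand: atgcGggtcatggcgccccgaGccCtcct
Of their coding windows, 19.7% and 23.9% occurred in another gene's transcripts. Their gene models also overlap on the same strand. HLA-C in RPF was 17.2, 18.7 and 16.8 CPM in siControl and 17.4, 14.8 and 15.5 CPM in siIGF2BP3, which overlapped, and it was called only without the first siIGF2BP3 library (-0.21, edgeR adjusted p = 0.0401). HLA-B was 14.1, 14 and 13.5 CPM against 16.6, 12.8 and 13 CPM. Only the reference sequences were examined, not the alleles that HepG2 carries.

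RPF groups that did not overlap were counted in the same way. The whole siIGF2BP3 group was under the whole siControl group for 13.8% of all genes tested and for 14 of the 43 members (32.6%), namely ADAR, B2M, IFI35, IFIT2, IFIT3, MX1, OAS1, PARP14, PARP9, PSMB8, STAT2, TRIM21, TRIM25 and USP18. The reverse order held for 12.8% of all genes and for 4 members (9.3%), the 3 IFITM genes and ISG20. With siIGF2BP3 replicates 2 and 3 alone, the shares were 24.2% of all genes and 17 members (39.5%) below, and 23.7% of all genes and 8 members (18.6%) above. No test of the list was made, and siControl RPF replicates 2 and 3 are close to 1 sample in these counts.

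**Figure D4:**
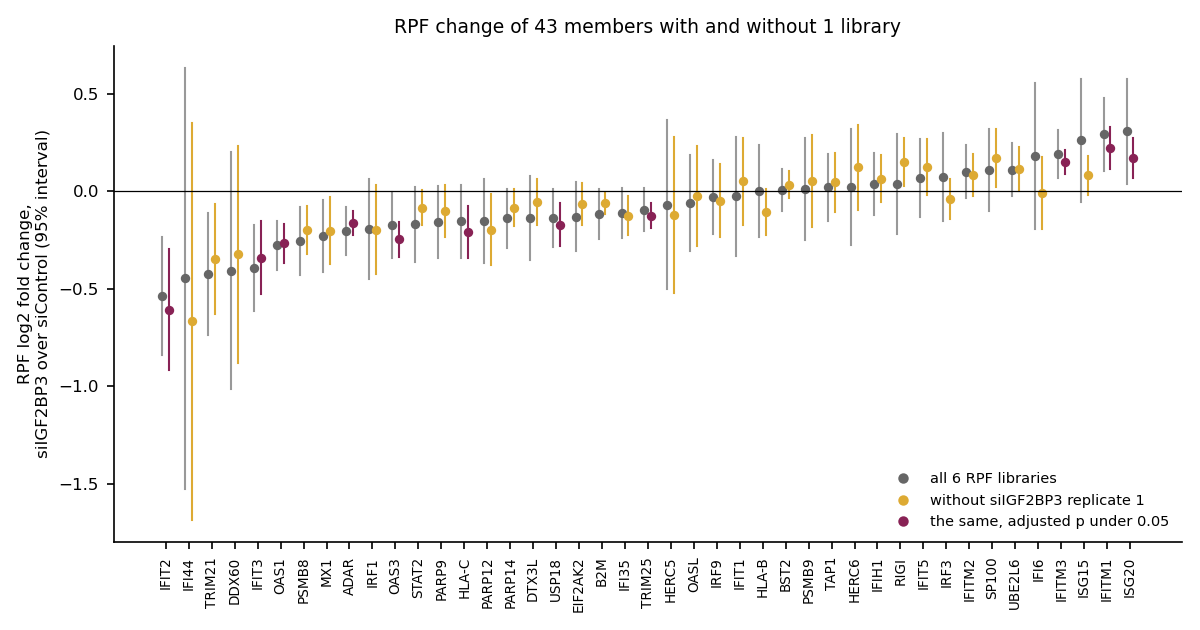
RPF log2 fold change of siIGF2BP3 over siControl (y axis, points with 95% intervals) for the 43 tested members along the x axis, with all 6 RPF libraries in grey and without siIGF2BP3 RPF replicate 1 in yellow, or in purple for the 11 members called. ISG15 moves from 0.26 to 0.08 and ISG20 from 0.31 to 0.17, while OAS1 goes from -0.28 to -0.27.

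RPF over Input was compared in 1 model with an interaction of assay and knockdown, which the study calls translation efficiency (TE). edgeR called 2.17% of 13395 genes and 0 of 40 members, and DESeq2 called 0 members. An unadjusted p under 0.05 was found for 8 of the 40 (20%) and for 15.9% of all genes. The members' median log2 change was 0.07 against 0.01 for all genes, and the interval lay within 1.5-fold for 28 and within 2-fold for 37. Without siIGF2BP3 RPF replicate 1, 10% of 13479 genes and 3 of 40 members (7.5%) were called. STAT2 and TRIM25 were lower and BST2 was higher in siIGF2BP3. With siControl RPF replicates 2 and 3 summed as well, 8.04% of 13521 genes and 2 of 40 members (5%) were called, TRIM25 and BST2 but not STAT2.

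STAT2, a signal carrier that acts with IRF9, lay on opposite sides in the assays. In Input it was 11.06, 10.2 and 10.6 CPM in siControl and 11.09, 13.8 and 14.1 CPM in siIGF2BP3. In RPF it was 37.8, 39.1 and 38.2 CPM against 29.5, 35.1 and 37 CPM. The groups did not overlap in either assay, although the closest Input libraries differed only in the last digit given. The change of RPF over Input was -0.46 ± 0.14 on the log2 scale (edgeR adjusted p = 0.102) with all libraries and -0.38 ± 0.11 (adjusted p = 0.0338) without the library that stood apart. TRIM25 had changes of -0.23 ± 0.07 (adjusted p = 0.123) and -0.25 ± 0.06 (adjusted p = 0.0127, edgeR). For BST2 they were 0.27 ± 0.09 (adjusted p = 0.137) and 0.30 ± 0.08 (adjusted p = 0.019, edgeR). TRIM25 overlaps DGKE on the opposite strand, which had 294 counts in siControl Input against 708 for TRIM25.

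Within siControl cells, most members lay above the median gene in footprints per transcript. The log2 ratio of RPF CPM over Input CPM had a median of 0.35 over 40 members against -0.17 over all genes tested, and 30 of the 40 (75%) lay above the latter. In siIGF2BP3 the medians were 0.34 and -0.20, and 31 of the 40 (77.5%) lay above. The 2 assays differ in library preparation, so only the order of genes is read from these ratios. IFITM1 had the highest ratio at 3.33, 3.53 and 3.27 in the siControl pairs and 3.81, 3.25 and 3.32 in the siIGF2BP3 pairs, at percentile 98.2 of all genes in siControl. HLA-C had 2.44, 2.15 and 2.73 and HLA-B 2.11, 1.71 and 2.19 in siControl. Each of these 3 genes shares coding windows with other genes and has under 5 CPM in Input, while IFITM2 and IFITM3, which also share windows, had mean ratios of -0.61 and -0.06. The gene models of IFITM1 and IFITM2 overlap on the same strand, as do those of HLA-B and HLA-C, so these ratios are uncertain. IFITM1 had a mean of 22.4 counts in siControl Input against 812.4 for IFITM2, and 450.1 against 1029.4 in siControl RPF. STAT2 followed at 1.78, 1.95 and 1.85 in siControl and 1.36, 1.35 and 1.40 in siIGF2BP3, with no shared coding windows.

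At the low end stood PSMB8, HERC5 and EIF2AK2. PSMB8 had log2 ratios of -1.11, -1.32 and -1.39 in siControl and -1.57, -1.48 and -1.29 in siIGF2BP3, and in RPF it was 12.6, 12.5 and 12.7 CPM against 9.45, 11.1 and 10.9 CPM. The RPF groups of PSMB8 did not overlap, and the RPF log2 fold change of -0.26 ± 0.08 had an edgeR adjusted p of 0.15 (-0.20 ± 0.06 and 0.0559 without siIGF2BP3 RPF replicate 1). HERC5 had ratios of -1.31, -1.05 and -0.84 in siControl and -0.97, 0.17 and -0.86 in siIGF2BP3, with RPF of 2.03, 2.02 and 2.39 CPM against 2.31, 2.41 and 1.52 CPM. EIF2AK2 had ratios of -0.98, -0.96 and -0.79 against -1.20, -0.90 and -0.76, and in Input it was 138, 125 and 126 CPM in siControl and 126, 119.5 and 115 CPM in siIGF2BP3. Both HERC5 and EIF2AK2 overlapped between conditions in RPF. PSMB8 overlaps PSMB9, and EIF2AK2 overlaps GPATCH11, each on the opposite strand.

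**Figure D5:**
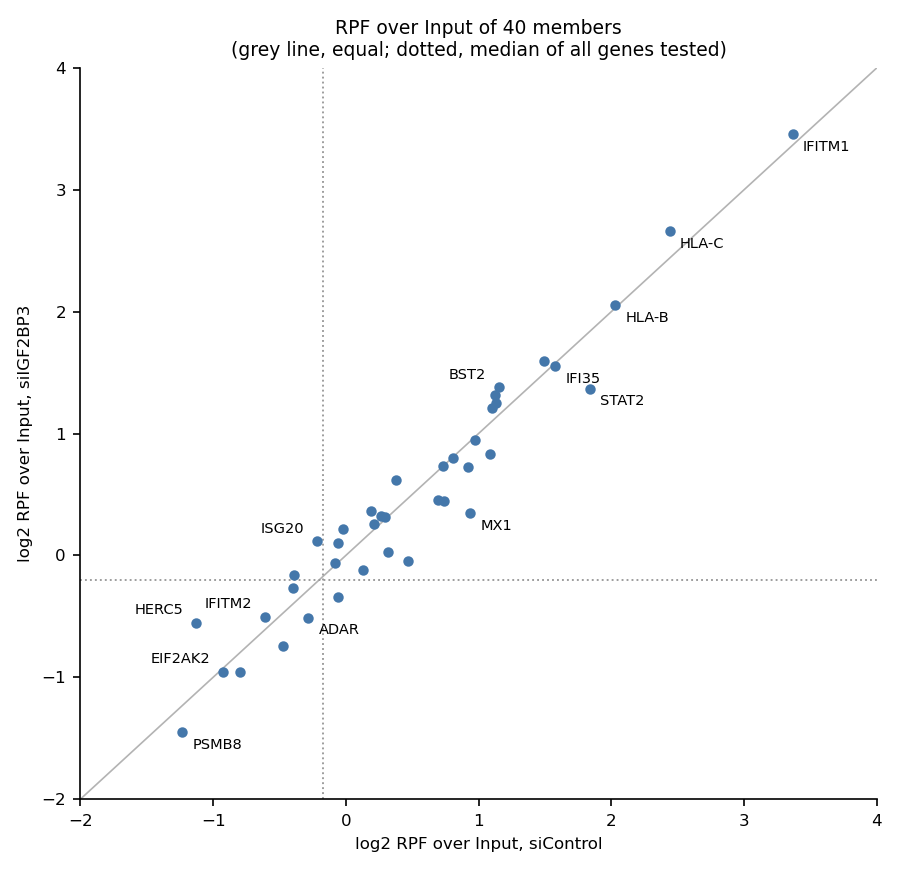
Log2 ratio of RPF over Input of the 40 tested members in siControl (x axis) and siIGF2BP3 (y axis), with the line of equal values and the median of all genes tested in each condition dotted. IFITM1, HLA-C and HLA-B lie at the top right in both conditions, PSMB8 at the bottom left, and STAT2 and MX1 below the line of equal values.

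The transcription factors, the PARP and DTX3L group and MX1 had no call with all libraries. The transcription factor IRF1 had an Input log2 fold change of -0.53 ± 0.19 (edgeR adjusted p = 0.099, and -0.71 with 0.016 without siControl Input replicate 1), IRF3 0.05 ± 0.08 and IRF9 0.13 ± 0.14 (adjusted p of 0.81 and 0.641, edgeR). IRF1 overlaps a protein-coding gene model on the opposite strand, so its values are uncertain. That model had a mean of 1044.5 counts in siControl Input against 71.7 for IRF1. The PARP genes, of the ADP-ribosylation family, and the ubiquitin ligase DTX3L all had negative RPF log2 fold changes, between -0.16 and -0.14 (-0.20 to -0.05 without siIGF2BP3 RPF replicate 1), and none was called in either case. PARP9 and DTX3L share exonic sequence on opposite strands as well as the promoter window above, so their values are uncertain. MX1 had an Input log2 fold change of 0.37 ± 0.20 and an RPF change of -0.23 ± 0.08 (edgeR adjusted p of 0.315 and 0.255), the latter -0.20 ± 0.08 (0.222) without that library. Members were also split by the response element core, with no test: the 22 tested with it had a median Input log2 fold change of -0.09 and the 13 tested without it -0.07, and in RPF the medians were -0.12 over 24 and -0.06 over 14. Without siIGF2BP3 RPF replicate 1 the order of the RPF medians turned, to -0.06 and -0.09. In that setting 5 of the 24 and 4 of the 14 were called, beside 16.5% of all genes tested.

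Other genes of the interferon pathway were examined as a background to the members. In a list of 71 such genes, 50 were tested in Input and 4 were called, 1 higher and 3 lower in siIGF2BP3, with a median log2 fold change of 0.00. Of all genes tested in Input, 5.96% were called. In RPF 0 of 51 and in TE 0 of 49 were called by edgeR, with 7 at an unadjusted p under 0.05 in each. Of all genes, 1.66% in RPF and 2.17% in TE were called, and 16.1% and 15.9% had an unadjusted p under 0.05. Without siIGF2BP3 RPF replicate 1, 9 of 51 were called in RPF (3 higher and 6 lower) and 7 of 49 in TE (3 higher and 4 lower). The shares of all genes called in that setting were 16.5% in RPF and 10% in TE. All 6 receptor chains were tested and none was called in either assay, with or without that library. Input log2 fold changes of the receptors ran from -0.11 for IFNAR1 to 0.19 for IFNLR1. TDRD7, an inhibitor of virus-induced autophagy, rose in Input from 20.2, 21.5 and 22.5 CPM in siControl to 30.8, 28.1 and 26.2 CPM in siIGF2BP3 (log2 fold change 0.40 ± 0.09, edgeR adjusted p = 0.00435). The genes that fell were PSME1, a proteasome activator subunit (-0.21 ± 0.04, adjusted p = 0.00283), LAP3, a peptidase (-0.22 ± 0.06, adjusted p = 0.0419) and LGALS3BP, a secreted glycoprotein (-0.20 ± 0.05, adjusted p = 0.0255, edgeR). Leaving out single Input libraries ended the call of LAP3 in 4 of 6 cases (siControl replicates 1 and 3, siIGF2BP3 replicates 2 and 3, adjusted p of 0.0957 to 0.160) and of LGALS3BP in 3 (siControl replicates 2 and 3, siIGF2BP3 replicate 1, 0.0901 to 0.127), and ended neither that of TDRD7 nor that of PSME1.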

How the data were processed

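HepG2 Input and RPF libraries (12 in all) were deposited by the authors as 1 table of expected counts per library, an estimated count per GENCODE gene on hg38 that need not be whole. The submitters' processing notes name Cutadapt, STAR and featureCounts, with versions and strand setting not given in the sources used here, and the labels describe library preparation for RPF only. Values were rounded to whole numbers. Tests used edgeR 4.0.16 in R 4.3.3 (robust quasi-likelihood fits, filterByExpr, TMM factors within each assay, Benjamini-Hochberg over all genes tested, adjusted p under 0.05), with DESeq2 1.42.0, RLE factors, other filters, protein-coding genes only, the summed IFITM genes, a replicate block and left-out libraries as alternatives. The scripts were tested on simulated data. CPM are normalized by TMM factors, and RPF over Input used a pseudocount of 0.5 counts. Intervals are 95% intervals of the fit. Figures were drawn with matplotlib 3.10.9 in Python 3.11.15. For means and SDs, siControl RPF replicates 2 and 3 entered as 1 sample. PCR reads carry no molecular identifiers here.

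The members, lists and motifs were chosen with earlier results of these data known. Values in every library are given for members called with all libraries, the 5 highest per exon length, the 3 highest and 3 lowest RPF over Input and families that share reads. Some genes of the pathway list are not reported here. Members called only without siIGF2BP3 RPF replicate 1, RIGI and IFIH1 were added after their values were seen. Coding windows were taken from the GENCODE 44 annotation on hg38 and promoters from RefSeq.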

Additional observations from a re-analysis of the deposited data

How the results depend on the processing

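Over the alternatives, the direction of the members' median was the same in Input, RPF and TE, and no single member's call was reversed. Leaving out each library in turn gave 0 to 3 called members in Input, 0 to 11 in RPF and 0 to 3 in TE, with medians of -0.07 to -0.04, -0.10 to -0.06 and 0.03 to 0.08. The 11 and 3 came from leaving out siIGF2BP3 RPF replicate 1. With that library left out and siControl RPF replicates 2 and 3 summed, an alternative chosen after seeing the data, 9 members were called in RPF and 2 in TE, and 3015 and 1087 genes in all. The families that share reads were also summed with that library left out, an alternative likewise chosen after seeing the data. It gave calls for 8 of 38 members and 3408 of 20608 genes in RPF. The 38 do not hold IFITM1, IFITM2, IFITM3, HLA-B and HLA-C, which entered only within sums. Both sums were themselves called by edgeR, the IFITM genes higher (adjusted p = 0.00744) and HLA class I lower (adjusted p = 0.0038). In Input, the called members were B2M, IRF1 and BST2 without siControl replicate 1, HERC5 alone without siIGF2BP3 replicate 1, and none without any other library, and 2 (B2M and BST2) with no filter on low counts. Over all genes, leaving out each library gave calls that ranged in Input from 444 without siControl replicate 3 to 907 without siControl replicate 1 against 879, in RPF from 11 without siControl replicate 2 to 3410 without siIGF2BP3 replicate 1 against 336, and in TE from 126 to 1350 against 291. Summing siControl RPF replicates 2 and 3 gave 14 in RPF and 143 in TE, DESeq2 gave 667 in RPF, and protein-coding genes alone gave 201 in RPF. In Input the other alternatives gave 718 (DESeq2) to 995 (no filter). Replicate numbers did not pair the Input samples (same-number correlations of -0.02 to 0.05, with 2 of 6 libraries closest to their own number). In RPF these correlations were positive at 0.10 to 0.32, with 4 of 6 libraries closest to their own number, so pairing there is not settled. The main fits took the libraries as unpaired. With the replicate block 1 member was called in Input, 0 in RPF and 0 in TE, with medians of -0.07, -0.09 and 0.06, and 931, 379 and 121 genes in all. The median log2 RPF over Input of 0.35 in siControl was 0.37 without TMM factors and 0.31 over 3 pairs (chosen after seeing the data), and that of 0.34 in siIGF2BP3 was 0.42 without replicate 1. Members under about 5 CPM have the widest intervals.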

Other observations

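Pathway genes that are not among the members differed widely in footprints per transcript. SOCS3, an inhibitor of cytokine receptor signalling, had 122, 118 and 110 counts in siControl Input but 4, 7 and 2 in siControl RPF, with 85, 126 and 115 against 2, 4 and 2 in siIGF2BP3. Among genes tested, the log2 ratio of RPF over Input in siControl was lowest for GBP2, an interferon-induced GTPase (-2.93, -2.84 and -2.81), XAF1 (-2.77, -2.77 and -3.21) and TRAF3 (-2.71, -2.91 and -2.98). The highest were LGALS3BP (2.53, 2.47 and 2.53) and PSMB10, an immunoproteasome subunit (2.40, 2.52 and 2.50). PSMB10 shares its strand with an overlapping gene model, so its value is uncertain.

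TDRD7 lay higher in siIGF2BP3 in both assays. TDRD7 in RPF was 14.5, 14.9 and 15.8 CPM in siControl and 17.8, 22 and 24.8 CPM in siIGF2BP3, with no overlap between groups. Its RPF log2 fold change was 0.54 ± 0.11 (edgeR adjusted p = 0.0691), and 0.65 ± 0.06 (adjusted p = 0.0001) without siIGF2BP3 RPF replicate 1.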
